A study of Saccharomyces cerevisiae with 9 samples.

Results

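The genes described here were the nuclear genes of the mitochondrial respiratory chain and ATP synthase, 34 of the 6357 rows in the table of read counts, taken by their systematic names. They comprised 4 genes of complex II (SDH1 to SDH4), 9 of complex III (COR1, QCR2, QCR6 to QCR10, RIP1 and CYT1), 2 cytochromes c (CYC1 and CYC7), 9 of complex IV (COX4 to COX13) and 10 of ATP synthase. Every one of the 34 names had the matching symbol in the RefSeq gene table, and all 34 passed the filter on low counts, the lowest count in any library being 47. The RNA came from the Brazilian fuel-ethanol strain CAT-1 of Saccharomyces cerevisiae, fed sugar cane molasses in 5 successive fermentations treated with acid in between. All 9 libraries come from hour 4 of the last fermentation. Control fermentations received no agent named in the labels, and the others received the antifoam labelled Ind_B or the antifoam labelled Ind_Z, with 3 libraries per group. GEO's labels give neither the composition nor the dose of the agents and do not say whether libraries of a group came from separate cultures, so p-values measure the spread between these libraries only.

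The respiratory chain of yeast carries electrons from succinate (complex II) and from external and internal NADH dehydrogenases through ubiquinone, the cytochrome bc1 complex (complex III), cytochrome c and cytochrome c oxidase (complex IV) to oxygen. ATP synthase uses the proton gradient so formed. A few core subunits are encoded in mitochondrial DNA and all others in the nucleus, where glucose represses most of the genes and the Hap2/3/4/5 activator, which binds CCAAT boxes, raises them when respiration is needed. Subunit V of complex IV and cytochrome c each have a form used in air (COX5A, CYC1) and one known for low oxygen or stress (COX5B, CYC7).

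The promoters of 4 members, chosen after their values were seen, are shown as a description, and no comparison used them. COX5A and COX5B encode alternative subunits whose ratio is compared between the groups. QCR2 and QCR8 are subunits of the same complex whose log2 fold changes in Ind_Z had opposite signs, neither of them called. The sequences were read from the RefSeq R64 assembly of the laboratory strain S288C by that assembly's own annotation, since the authors' build is not given in the sources used here, and CAT-1 may differ from them. Each window runs 5′ to 3′ from 250 bases before the start codon to 50 bases from it, on the plus strand of chrXIV:531475-531774 for COX5A, chrIX:154972-155271 for COX5B, chrXVI:919131-919430 for QCR2 and chrX:106184-106483 for QCR8. COX5B has 1 intron, and the last 50 bases of its window do not begin with ATG. They are genomic bases from the annotated start and cannot be read as continuous coding sequence. Capitals mark CCAAT (core of the Hap2/3/4/5 site) and ATTGTT (core of the site of Rox1, a repressor of hypoxic genes) on either strand.
COX5A: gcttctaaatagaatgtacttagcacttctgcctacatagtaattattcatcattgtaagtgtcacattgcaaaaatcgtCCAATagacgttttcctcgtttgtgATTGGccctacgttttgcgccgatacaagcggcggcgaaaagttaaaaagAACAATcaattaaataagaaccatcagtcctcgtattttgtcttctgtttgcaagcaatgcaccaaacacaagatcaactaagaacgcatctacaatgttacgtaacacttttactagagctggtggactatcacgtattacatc
COX5B: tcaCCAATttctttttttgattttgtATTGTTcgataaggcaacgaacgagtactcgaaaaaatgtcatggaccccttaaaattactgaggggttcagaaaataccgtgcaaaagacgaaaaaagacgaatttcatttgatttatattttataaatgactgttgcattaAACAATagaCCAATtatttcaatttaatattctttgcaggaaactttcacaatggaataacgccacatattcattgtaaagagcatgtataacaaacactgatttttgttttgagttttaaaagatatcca
QCR2: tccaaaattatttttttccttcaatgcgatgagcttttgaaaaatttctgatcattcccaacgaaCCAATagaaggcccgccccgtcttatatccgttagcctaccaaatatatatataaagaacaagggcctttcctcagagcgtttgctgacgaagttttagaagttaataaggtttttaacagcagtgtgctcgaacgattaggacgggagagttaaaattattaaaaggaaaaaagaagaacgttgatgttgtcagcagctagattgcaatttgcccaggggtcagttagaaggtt
QCR8: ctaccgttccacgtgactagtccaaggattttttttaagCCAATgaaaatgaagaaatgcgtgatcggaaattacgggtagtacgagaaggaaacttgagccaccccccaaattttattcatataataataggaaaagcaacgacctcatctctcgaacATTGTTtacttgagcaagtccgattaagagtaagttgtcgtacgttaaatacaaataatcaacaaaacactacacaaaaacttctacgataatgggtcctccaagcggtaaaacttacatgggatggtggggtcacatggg

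COX5A held CCAAT 170 bases before the start codon on the gene's strand and 145 bases before it on the other strand, and ATTGTT at 95 bases on the other strand. COX5B held CCAAT at 247 and 72 bases and ATTGTT at 224 bases on the gene's strand and 81 bases on the other. QCR2 held 1 CCAAT, at 185 bases, and QCR8 held CCAAT at 211 bases and ATTGTT at 91 bases. Of the 34 members 28 held CCAAT in the window, 82.4% against 43.3% of 6001 nuclear promoter windows of the same length. By complex these were 4 of 4 in complex II, 7 of 9 in complex III, 0 of 2 cytochromes c, 8 of 9 in complex IV and 9 of 10 in ATP synthase. ATTGTT was in 13 of 34 windows (38.2%), near the 35.2% of all windows. In the same order of complexes it was in 0 of 4, 2 of 9, 0 of 2, 6 of 9 and 5 of 10. The 2 motifs share no letters at a common position in these 4 windows. A match is a run of letters and not a measured binding site.

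Total counts ranged from 5900571 to 18245935 per library, and the 34 members took 0.292% to 0.412% of them. Levels are read counts scaled to library size (CPM, with TMM factors), and comparisons are log2 fold changes ± SE from edgeR's quasi-likelihood fit to all 9 libraries, with p-values adjusted by Benjamini-Hochberg over 6137 genes and called at an adjusted p under 0.05. CPM are relative to the TMM-scaled size of a library, so they are not plain shares of its counts. They do not show the number of cells or the RNA per cell. A lower CPM of a gene cannot be told apart from a larger share of other transcripts. The control library control13 stood apart: over all genes its Spearman's rho was 0.954 to 0.956 with the other 2 controls, which had 0.995 with each other, and 26.1% of all genes were highest and 26.4% lowest in it. Of the 34 members 26 were highest and 1 lowest in control13 by scaled CPM. The TMM factor of control13 was 0.757, against 0.927 to 1.19 in the other libraries, and its total count was 6585639. As a share of raw counts the 34 members took 0.396% in control13 and 0.412% in control1. The part of the scaling in these ranks was not tested. The part of control13 in the results was not tested either, so most of the members' fold changes against control are also given without it.

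The log2 CPM of each member was centred on its mean over the 9 libraries. The median of the 34 was then 0.27, −0.01 and 0.65 in control1, control12 and control13, −0.26, −0.19 and −0.28 in Ind_B1, Ind_B2 and Ind_B3 and −0.07, −0.13 and −0.02 in Ind_Z1, Ind_Z2 and Ind_Z3. In this median over all 34, all Ind_B libraries were lowest, and control12 lay next to Ind_Z3. The order did not hold in every complex. For complex IV the median was 0.165 in Ind_B2, above control12 (−0.09) and above Ind_Z1, Ind_Z2 and Ind_Z3 (−0.14, −0.23 and 0.03). For complex II alone the medians were 0.03, −0.02 and 0.88 in the controls and −0.003, −0.05 and 0.04 in Ind_Z, so that apart from control13 these groups overlapped.

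Per kilobase of coding length, members of complex III, of complex IV and of ATP synthase differed several-fold in level, while those of complex II lay closer together. Deviations between libraries of a group varied with coding length, as given below. Levels of short and long genes are therefore compared here only with that limit. In complex IV COX13, a small nuclear subunit gene, had the highest level of all 34 in control at 567 ± 113 CPM per kb (SD, n = 3), and its neighbour COX7 was at 212 ± 48.3. The lowest in that complex, COX8, was at 116 ± 42.7 CPM per kb. In complex III the accessory subunit genes QCR9 (463 ± 97.5 CPM per kb), QCR8 (384 ± 64.2) and QCR7 (247 ± 43.4) had the highest levels, while the Rieske protein gene RIP1 was lowest at 153 ± 19.6. From COR1 (187 ± 56.6) down to RIP1 the 6 neighbouring means of complex III lay closer to each other than their SDs.

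In ATP synthase the catalytic F1 genes ATP2 (beta, 374 ± 129 CPM per kb in control) and ATP1 (alpha, 325 ± 85.3) stood above the rest, which ran from ATP17 (191 ± 11.2), a membrane subunit, down to the stator gene ATP14 (73.7 ± 11.7). ATP2 and ATP1 did not differ beyond their SDs. The 4 complex II genes lay close together, from SDH1 (157 ± 45.8) to SDH4 (116 ± 78.3), each mean within the SD of its neighbour. CYC1, the main cytochrome c gene in air, had the lowest level of the 34 at 56 ± 28.9 CPM per kb, below CYC7 at 265 ± 47.1. Between pairs of libraries, Spearman's rho of the members' levels was 0.767 to 1 in complex IV, 0.709 to 1 in ATP synthase and 0.467 to 0.967 in complex III, and it ran from −0.4 to 1 over the 4 genes of complex II.

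**Figure D1:**
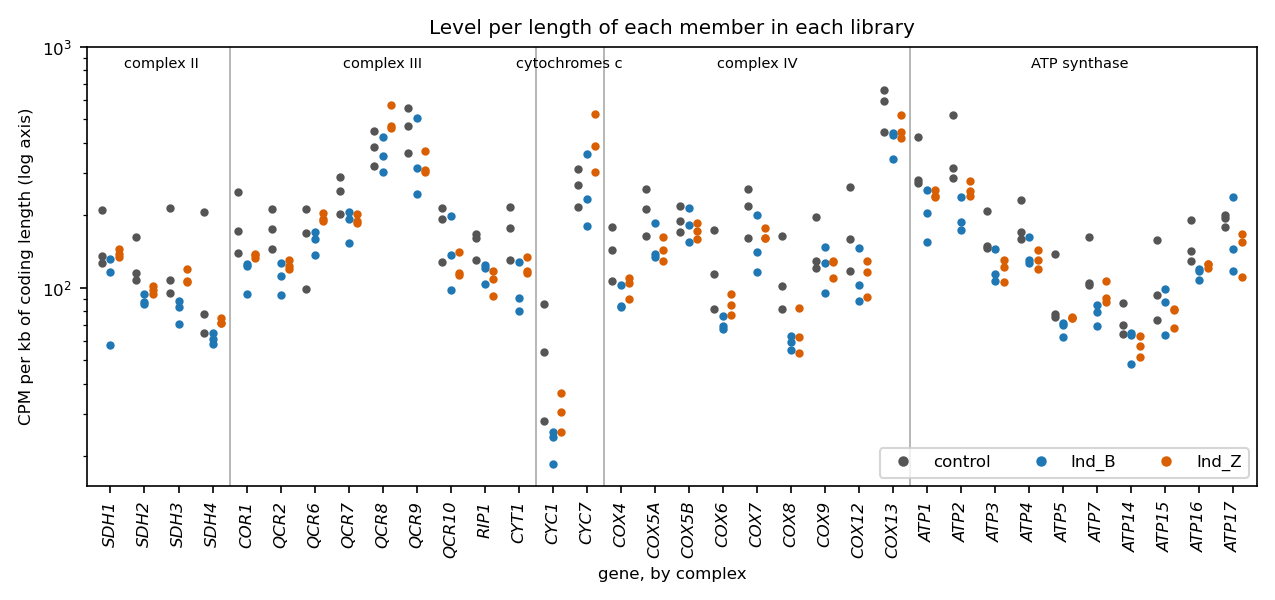
Level of each of the 34 genes in CPM per kilobase of coding length on a log axis, 1 point per library, coloured by group and arranged by complex. COX13 is the highest gene in control and CYC1 the lowest, and 1 control point lies far above the others in most complex II and ATP synthase genes.

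In Ind_B against control all 34 members had a log2 fold change below 0, against 48.2% of all genes, and edgeR called none of them (0 of 34, beside 0.147% of all genes), whereas DESeq2 called 10, all lower (4.92% of all genes). Their median was −0.49, with a range of −1.28 to −0.04, while the median over all genes was 0.01. At an unadjusted p under 0.05 there were 23 lower members, against 9.91% of all genes, and 0 higher, against 9.14%. In 17 members the 3 Ind_B libraries lay below all 3 controls, against 9.21% of all genes, and in 0 above them, against 12%. By complex the medians were −0.7 for complex II, −0.4 for complex III, −0.66 for the cytochromes c, −0.49 for complex IV and −0.44 for ATP synthase. Without control13 the median of the 34 was −0.33, with 33 lower and 0 called (0.728% of all genes), and the medians by complex were −0.34, −0.37, −0.54, −0.37 and −0.24 in the same order. Of the 34 log2 fold changes, 17 were then over 1.5 times smaller, 2 over 1.5 times larger and 1, that of COX5B, turned sign.

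In Ind_Z against control 31 members were below 0 and 3, QCR6, QCR8 and CYC7, above it, against 54.5% of all genes below 0. By edgeR 0 of the 34 were called (2.13% of all genes), and by DESeq2 1, RIP1, which was lower (7.28% of all genes). The median was −0.43, ranging from −0.81 to 0.61, beside −0.03 for all genes. At an unadjusted p under 0.05 there were 15 lower members (8.95% of all genes) and 2 higher (10.3% of all genes), and 13 members lay below all controls without overlap (12.6% of all genes) and 1 above (13.5%). The medians were −0.35 for complex II, −0.5 for complex III, −0.1 for the cytochromes c, −0.48 for complex IV and −0.4 for ATP synthase. Without control13 the median of the 34 was −0.21, with 28 members below 0. The medians were then 0.06 for complex II, with 3 of 4 members above 0, −0.33 for complex III, 0.04 for the cytochromes c, −0.29 for complex IV and −0.19 for ATP synthase. Of the 34 log2 fold changes, 22 were over 1.5 times smaller in that fit and 3, those of SDH1, SDH3 and SDH4, turned sign. It called 1 member, RIP1, as lower (19.6% of all genes were called). Both antifoams were compared with the same 3 control libraries.

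**Figure D2:**
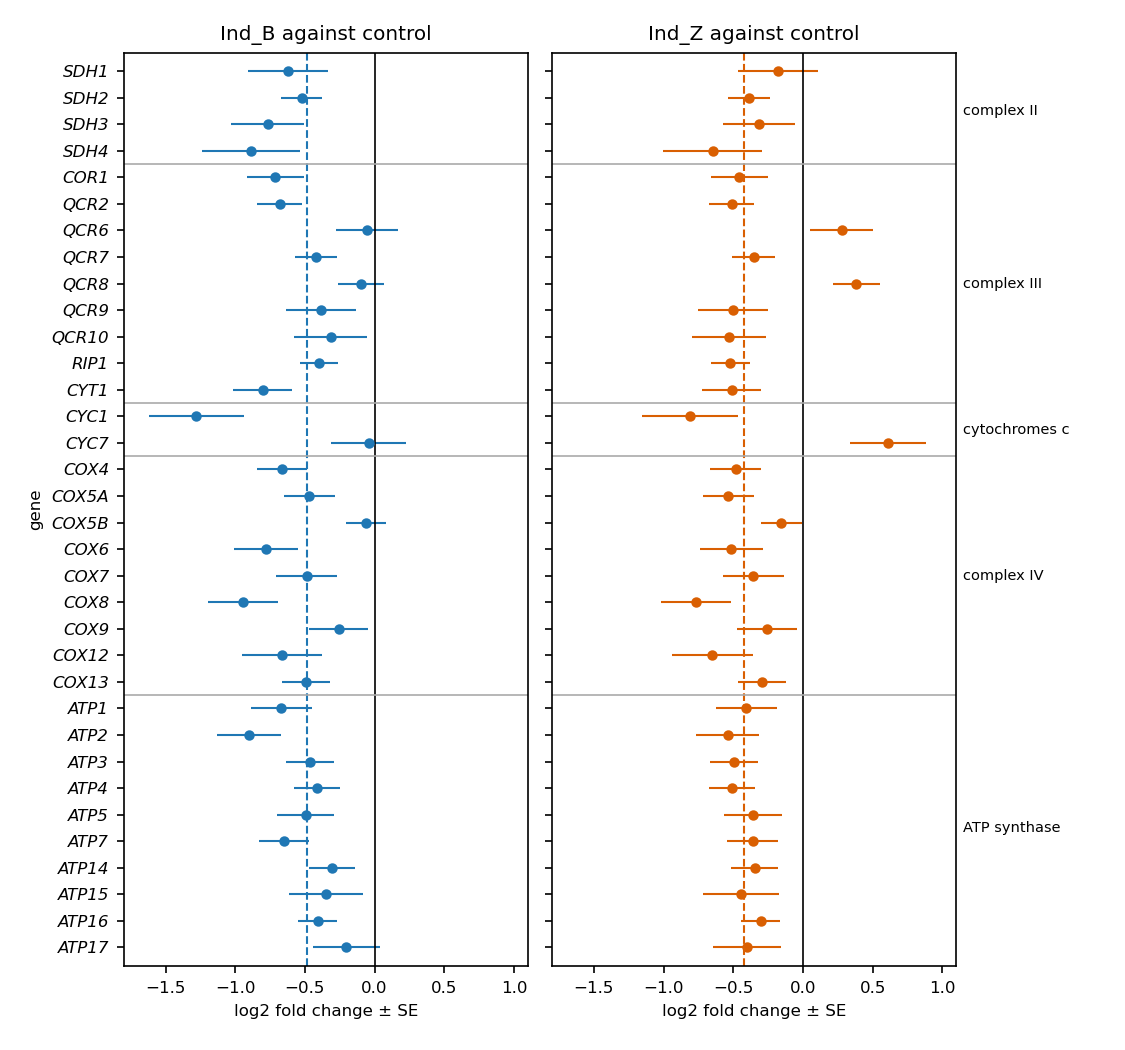
Log2 fold change ± SE of each gene in Ind_B against control (left) and Ind_Z against control (right), by complex, with a dashed line at the median of the 34 genes. All points lie below 0 for Ind_B, and QCR6, QCR8 and CYC7 lie above 0 for Ind_Z.

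Ind_Z against Ind_B gave a median of 0.15 (all genes −0.03), with 24 members above 0 and 10 below (53.8% of all genes below). EdgeR called 0 members (0.424% of all genes) and DESeq2 0 (10.3%), and at an unadjusted p under 0.05 there were 2 higher (13% of all genes) and 0 lower (12.5%). In 12 members all 3 Ind_Z libraries lay above all 3 Ind_B libraries, against 21.4% of all genes, and 0 lay below, against 21.5%. The medians were 0.34 for complex II, 0.17 for complex III, 0.56 for the cytochromes c, 0.13 for complex IV and 0.04 for ATP synthase. All 4 complex II genes were among the 12. Without control13, whose removal also changes the shared estimate of spread, SDH3 and QCR8 were called higher in Ind_Z (adjusted p = 0.0147 and 0.0484), where 23.5% of all genes were called. The edgeR test of all 3 groups at once called 0 members (2% of all genes) and DESeq2 11 (14.8%), with 20 at an unadjusted p under 0.05 (26.7% of all genes) and a lowest adjusted p = 0.0769, for QCR2.

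**Figure D3:**
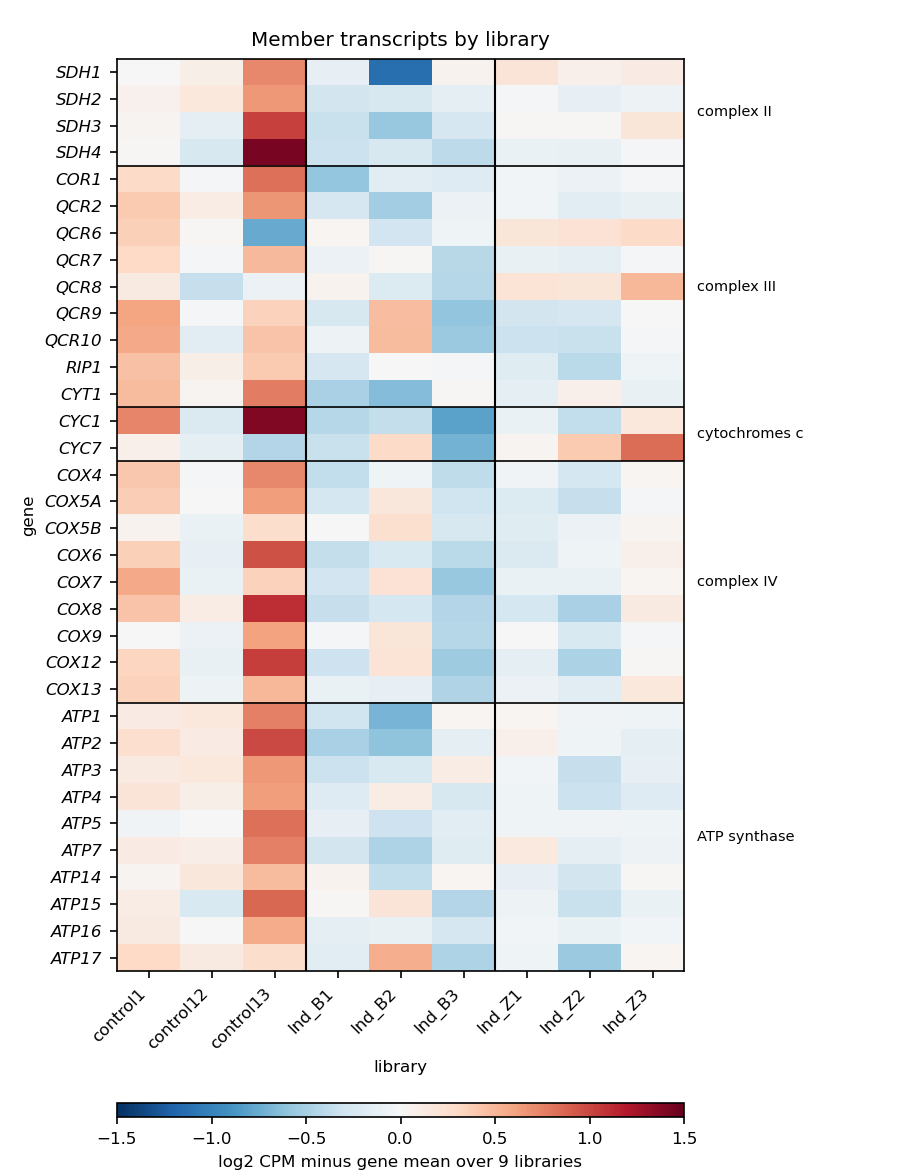
Log2 CPM of the 34 genes in the 9 libraries, each gene centred on its mean over the libraries, with red above and blue below that mean. Control13 is red in nearly every row, with QCR6, QCR8 and CYC7 the rows below their mean, and SDH1 is lowest in Ind_B2.

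Complex II, succinate dehydrogenase, joins the chain to the tricarboxylic acid cycle. SDH2 (YLL041C), encoding its iron-sulfur subunit, was at 86.5, 91.9 and 130 CPM in control1, control12 and control13, at 68.4, 70 and 75.3 in Ind_B1, Ind_B2 and Ind_B3 and at 81.2, 75.7 and 78.1 in Ind_Z1, Ind_Z2 and Ind_Z3. The 3 groups did not overlap, with control highest and Ind_B lowest. Its changes were −0.52 ± 0.15 in Ind_B (adjusted p = 0.139) and −0.39 ± 0.15 in Ind_Z (adjusted p = 0.204), or −0.33 and −0.18 without control13. SDH3 (YKL141W), a membrane anchor gene, was at 64.1, 57 and 128 CPM in the controls in that order, at 49.5, 42.3 and 52.5 in Ind_B and at 63.4, 63.3 and 71.2 in Ind_Z. Ind_B lay below both other groups, and Ind_Z overlapped the controls; the changes were −0.77 ± 0.26 in Ind_B (adjusted p = 0.185) and 0.45 ± 0.26 in Ind_Z against Ind_B (adjusted p = 0.291). Without control13 SDH3 was at −0.34 in Ind_B.

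SDH4 (YDR178W), the other anchor gene, had 42.3, 35.3 and 113 CPM in the controls, 33.5, 35.4 and 31.9 in Ind_B and 39, 38.9 and 40.9 in Ind_Z. Apart from control13 the control and Ind_Z libraries lay side by side, and the change in Ind_Z went from −0.65 ± 0.36 (adjusted p = 0.352) to 0.03 without that library. In Ind_B it was −0.89 ± 0.35 (adjusted p = 0.228) and −0.22 without control13. SDH1 (YKL148C), the flavoprotein gene, was at 244, 260 and 404 CPM in the controls, at 224, 111 and 253 in Ind_B and at 279, 257 and 265 in Ind_Z. Ind_B2 was the low library, and the change of Ind_Z against Ind_B was 0.44 ± 0.29 (adjusted p = 0.341). SDH1 has a paralog (SDH9 in RefSeq) with 77% identity over 93.3% of its coding length, short of a near-identical copy.

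Complex III passes electrons from ubiquinol to cytochrome c. QCR2 (YPR191W), a core subunit gene, had the lowest p of the 34 in Ind_B, at 194, 161 and 235 CPM in the controls, 124, 104 and 140 in Ind_B and 144, 132 and 137 in Ind_Z. Every antifoam library lay below every control, with changes of −0.68 ± 0.16 in Ind_B (adjusted p = 0.102) and −0.51 ± 0.16 in Ind_Z (adjusted p = 0.129), or −0.54 and −0.36 without control13. CYT1 (YOR065W), encoding cytochrome c1, was at 164, 122 and 202 CPM in the controls, 84.3, 74.8 and 119 in Ind_B and 108, 124 and 109 in Ind_Z. Ind_B did not overlap the controls, Ind_Z reached past control12, and the change in Ind_B was −0.8 ± 0.21 (adjusted p = 0.122), or −0.63 without control13.

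RIP1 (YEL024W), the Rieske iron-sulfur protein gene, was at 108, 84.7 and 105 CPM in the controls, 66.9, 80.2 and 78.6 in Ind_B and 70.4, 60.1 and 76.4 in Ind_Z. Both antifoam groups lay below the controls, with −0.52 ± 0.14 in Ind_Z (adjusted p = 0.083) and −0.4 ± 0.14 in Ind_B (adjusted p = 0.187). RIP1 is a member whose control13 value lay between those of the other 2 controls, and without that library the change in Ind_Z was −0.48 ± 0.14 and called (adjusted p = 0.0408).

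QCR8 (YJL166W) and QCR6 (YFR033C) were the complex III genes with a log2 fold change above 0 in Ind_Z. QCR8, a small subunit near the ubiquinol site, was at 128, 91.1 and 110 CPM in the controls, 120, 101 and 86.6 in Ind_B and 133, 131 and 164 in Ind_Z. All Ind_Z libraries lay above all others, with changes of 0.38 ± 0.17 against control (adjusted p = 0.245) and 0.48 ± 0.17 against Ind_B (adjusted p = 0.123). QCR6, the acidic hinge subunit gene, was at 94.6, 74.8 and 43.8 CPM in the controls, 75.6, 60.7 and 70.7 in Ind_B and 84.1, 86.1 and 90.4 in Ind_Z. It was the 1 member that was lowest of all libraries in control13, and its change in Ind_Z was 0.28 ± 0.22 against control (adjusted p = 0.531) and 0.33 ± 0.22 against Ind_B (adjusted p = 0.365). Without control13 the change of QCR6 against control was 0.04 in Ind_Z and −0.3 in Ind_B, and that of QCR8 in Ind_Z was 0.39. Of the other 4 genes, COR1 (YBL045C), a core subunit gene, had −0.71 ± 0.2 in Ind_B and −0.46 ± 0.2 in Ind_Z (adjusted p = 0.139 and 0.253), and both groups lay below the controls. Without control13 its values were −0.46 and −0.19. The accessory genes QCR7 (YDR529C), QCR9 (YGR183C) and QCR10 (YHR001W-A) ranged from −0.42 to −0.31 in Ind_B and from −0.53 to −0.35 in Ind_Z, with overlapping groups. Without control13 these 3 ranged from −0.39 to −0.28 and from −0.49 to −0.23.

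The cytochrome c genes encode the soluble carrier between complexes III and IV, and the log2 fold changes of the 2 forms in Ind_Z had opposite signs. CYC1 (YJR048W) was at 17.9, 9.22 and 28.3 CPM in the controls, 7.92, 8.34 and 6.1 in Ind_B and 10.1, 8.31 and 12 in Ind_Z. Ind_B lay below the controls and Ind_Z overlapped them, with changes of −1.28 ± 0.34 in Ind_B (adjusted p = 0.129), the lowest of the 34, and −0.81 ± 0.34 in Ind_Z (adjusted p = 0.237). Without control13 these were −0.91 and −0.42. CYC7 (YEL039C) was at 106, 91.1 and 74.1 CPM in the controls, 80.1, 123 and 61.7 in Ind_B and 104, 132 and 180 in Ind_Z. Its groups overlapped, with −0.04 ± 0.27 in Ind_B (adjusted p = 0.948), 0.61 ± 0.27 in Ind_Z (adjusted p = 0.251) and 0.65 ± 0.27 in Ind_Z against Ind_B (adjusted p = 0.168). Without control13 CYC7 was at −0.18 in Ind_B and 0.49 in Ind_Z. The coding sequences of CYC1 and CYC7 were identical at 257 of 329 aligned bases (78.1%).

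In each of the 9 libraries CYC7 had more CPM than CYC1. The ratio of CYC7 to CYC1 was 5.93, 9.89 and 2.62 in control1, control12 and control13, 10.1, 14.8 and 10.1 in Ind_B1, Ind_B2 and Ind_B3 and 10.3, 15.9 and 14.9 in Ind_Z1, Ind_Z2 and Ind_Z3. All 6 antifoam libraries lay above the controls, though control12 came close to Ind_B1 and Ind_B3. On the log2 scale the ratio was 2.41 ± 0.96 in control, 3.49 ± 0.32 in Ind_B and 3.73 ± 0.34 in Ind_Z (SD, n = 3). The 2-sided exact permutation test gave p = 0.1 for each antifoam against control, the smallest p that 3 against 3 libraries allow, and p = 0.2 between the antifoams. Adjusted over the 6 tests of the isoform ratios these were 0.15, 0.15 and 0.24. Without control13 the differences from control were 0.57 in place of 1.09 in Ind_B and 0.81 in place of 1.32 in Ind_Z.

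Complex IV, cytochrome c oxidase, reduces oxygen to water. COX5A (YNL052W) was at 98.3, 75.9 and 118 CPM in the controls, 63.5, 85.6 and 61.8 in Ind_B and 66.3, 59.9 and 74.7 in Ind_Z. Ind_Z lay below the controls and Ind_B2 overlapped them, with −0.47 ± 0.18 in Ind_B (adjusted p = 0.222) and −0.54 ± 0.18 in Ind_Z (adjusted p = 0.16), or −0.33 and −0.37 without control13. COX5B (YIL111W) was at 86.4, 77.6 and 99.5 CPM in the controls, 83.4, 97.8 and 70.5 in Ind_B and 72.8, 78.3 and 85.1 in Ind_Z. Its groups overlapped throughout, with changes of −0.06 ± 0.14 and −0.15 ± 0.14 (adjusted p = 0.837 and 0.593), or 0.02 and −0.06 without control13. The coding sequences of the pair were identical at 309 of 446 aligned bases (69.3%).

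The ratio of COX5B to COX5A in CPM was 0.878, 1.02 and 0.841 in control1, control12 and control13, 1.31, 1.14 and 1.14 in Ind_B1, Ind_B2 and Ind_B3 and 1.1, 1.31 and 1.14 in Ind_Z1, Ind_Z2 and Ind_Z3. Every antifoam library was above every control. On the log2 scale the ratio was −0.14 ± 0.15 in control, 0.26 ± 0.12 in Ind_B and 0.24 ± 0.13 in Ind_Z (SD, n = 3), a difference of 0.39 and 0.37 from control and of −0.02 between the antifoams. The 2-sided exact permutation test gave p = 0.1, p = 0.1 and p = 0.5, or 0.15, 0.15 and 0.5 adjusted over the 6 tests. Without control13 the differences from control were 0.34 and 0.31. Both isoform ratios are taken within a library, so library scaling cancels apart from the prior count.

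**Figure D4:**
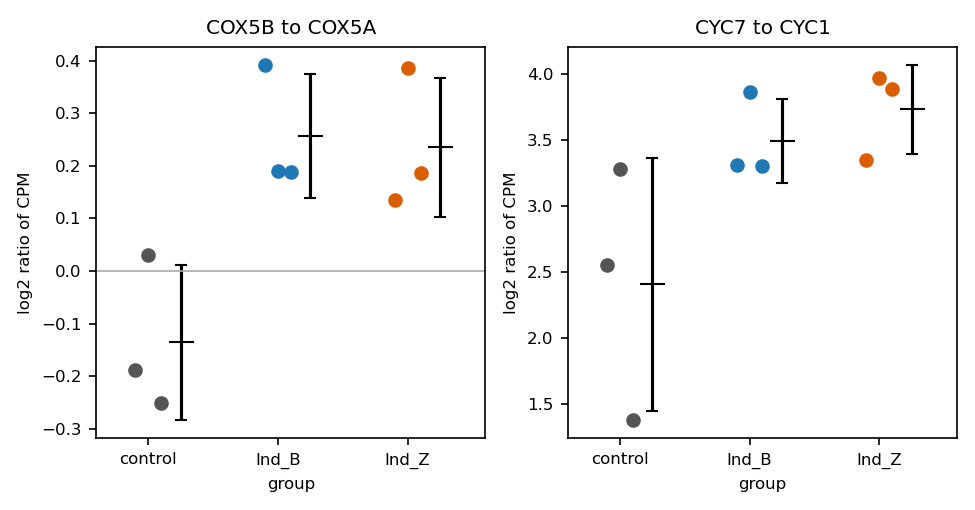
Log2 ratio of COX5B to COX5A (left) and of CYC7 to CYC1 (right) in CPM, 1 point per library, with the mean ± SD of each group in black. The 6 antifoam libraries lie above the 3 controls in both panels, with control12 near the lowest antifoam values on the right.

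Among the other complex IV genes, COX8 (YLR395C) was at 24.1, 19.3 and 38.7 CPM in the controls, 14.1, 14.9 and 13.1 in Ind_B and 14.8, 12.7 and 19.6 in Ind_Z. Ind_B lay below the controls and Ind_Z3 just reached control12, with −0.94 ± 0.25 in Ind_B (adjusted p = 0.122) and −0.77 ± 0.25 in Ind_Z (adjusted p = 0.141), or −0.65 and −0.46 without control13. COX4 (YGL187C), encoding a zinc-binding subunit, was at 66.9, 50.2 and 83.7 CPM in the controls, 39.1, 48.2 and 38.9 in Ind_B and 48.9, 42.1 and 51.5 in Ind_Z. Its Ind_B libraries lay below the controls (−0.66 ± 0.18, adjusted p = 0.133; −0.49 without control13), and its Ind_Z libraries overlapped control12 only.

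COX6 (YHR051W) was at 51.1, 36.6 and 77.7 CPM in the controls, 31.1, 34 and 30.1 in Ind_B and 34.4, 38 and 42.3 in Ind_Z, the lowest group being Ind_B. Its change in Ind_Z against Ind_B was 0.27 ± 0.23 (adjusted p = 0.469). Against control COX6 was at −0.78 ± 0.23 in Ind_B and −0.51 ± 0.23 in Ind_Z (adjusted p = 0.141 and 0.253), or −0.48 and −0.2 without control13. COX13 (YGL191W) was at 232, 173 and 259 CPM in the controls, 171, 167 and 134 in Ind_B and 172, 163 and 204 in Ind_Z, with 0.19 ± 0.17 between the antifoams (adjusted p = 0.489). Ind_B lay below the controls in COX13 by a narrow margin at control12. COX7 (YMR256C), COX9 (YDL067C) and COX12 (YLR038C) ranged from −0.67 to −0.26 in Ind_B and from −0.65 to −0.26 in Ind_Z, none called and all with overlapping groups. Without control13 they ranged from −0.49 to −0.05 and from −0.34 to −0.02.

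ATP synthase makes ATP on its F1 head, held by a stator against the membrane rotor. ATP2 (YJR121W), the beta subunit gene, was at 482, 439 and 801 CPM in the controls, 289, 266 and 365 in Ind_B and 426, 388 and 368 in Ind_Z. The groups did not overlap, in the order control, Ind_Z, Ind_B. Its changes were −0.9 ± 0.23 in Ind_B (adjusted p = 0.117), −0.54 ± 0.23 in Ind_Z (adjusted p = 0.233) and 0.36 ± 0.23 in Ind_Z against Ind_B (adjusted p = 0.329). Without control13 ATP2 was at −0.59 in Ind_B and −0.22 in Ind_Z. ATP7 (YKL016C), the stator subunit d gene, was at 54.7, 53.9 and 85.3 CPM in the controls, 41.5, 36.3 and 44.5 in Ind_B and 55.9, 46 and 47.5 in Ind_Z. Ind_B lay below both other groups, at −0.65 ± 0.18 against control (adjusted p = 0.139; −0.42 without control13), and Ind_Z1 was within the controls.

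ATP4 (YPL078C), the stator subunit b gene, was at 125.5, 117 and 170 CPM in the controls, 96.3, 119 and 93.5 in Ind_B and 105, 88 and 96.1 in Ind_Z. Ind_Z lay below the controls (−0.51 ± 0.16, adjusted p = 0.136; −0.32 without control13) and Ind_B2 was level with control12. ATP3 (YBR039W), the F1 gamma gene, was at 137, 140 and 196 CPM in the controls, 100.1, 106 and 135 in Ind_B and 122, 98.6 and 115 in Ind_Z, both antifoam groups below the controls. Its change in Ind_Z was −0.49 ± 0.17 (adjusted p = 0.17), or −0.3 without control13. The other 6 genes, ATP1 (YBL099W), ATP5 (YDR298C), ATP14 (YLR295C), ATP15 (YPL271W), ATP16 (YDL004W) and ATP17 (YDR377W), ranged from −0.67 to −0.2 in Ind_B and from −0.45 to −0.3 in Ind_Z, or from −0.44 to −0.04 and from −0.38 to −0.03 without control13. In Ind_Z 8 of the 10 ATP synthase genes lay below all controls without overlap, beside 12.6% of all genes, and in Ind_B 6 did, beside 9.21%.

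Other genes of the pathway gave no edgeR calls in any of the 3 comparisons: 0 of 10 regulators, 0 of 17 other subunits and carriers, 0 of 49 assembly and expression factors, 0 of 9 ubiquinone synthesis genes and 0 of 6 mitochondrially encoded subunits passed in either direction. Of these 91 genes, 13 were lower (14.3%, beside 9.91% of all genes) and 3 higher (3.3%, beside 9.14%) at an unadjusted p under 0.05 in Ind_B. In Ind_Z 18 were lower (19.8%, beside 8.95%) and 3 higher (3.3%, beside 10.3%), and in Ind_Z against Ind_B 15 were lower (16.5%, beside 12.5%) and 3 higher (3.3%, beside 13%). DESeq2 called 4 (4.4%, beside 4.92% of all genes), 7 (7.69%, beside 7.28%) and 3 (3.3%, beside 10.3%), shares near or below those of all genes. These calls were uneven between the lists. Of the 17 other subunits and carriers it called 4 in Ind_B (STF1, COX26, NDI1 and CYB2), beside 4.92% of all genes. In Ind_Z it called 4 of the 17 (ATP20, INH1, NDI1 and DLD1), beside 7.28%, and all these were lower. Of the 49 assembly and expression factors it called 0 and 1 in these 2 comparisons. Values of the 91 genes are not given without control13, and the part of that library in them was not tested. HAP4, the regulated subunit of the Hap2/3/4/5 activator, named after its values were seen, was at 226, 251 and 236 CPM in the controls, 182, 247 and 325 in Ind_B and 290, 403 and 317 in Ind_Z. Its Ind_Z libraries lay above the controls, as in 13.5% of all genes, and opposite to the median of the 34 members, with 0.5 ± 0.21 (adjusted p = 0.226). The other subunits of the activator, HAP2, HAP3 and HAP5, were below 0 in Ind_Z, at −0.11, −0.11 and −0.21. Among regulators the lowest p was that of ROX1, encoding the repressor of hypoxic genes, in Ind_B (−0.73 ± 0.28, adjusted p = 0.216), CAT8, an activator of genes for nonfermentable carbon sources, in Ind_Z (0.38 ± 0.11, adjusted p = 0.1) and HAP2 between the antifoams (−0.35 ± 0.14, adjusted p = 0.164).

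The other subunits and carriers had medians of −0.28 in Ind_B and −0.52 in Ind_Z. NDI1, the internal NADH dehydrogenase gene, was at 60.5, 45.7 and 105 CPM in control1, control12 and control13. It was at 31.3, 36 and 33.6 in Ind_B and at 35.4, 32 and 41.9 in Ind_Z. Its edgeR changes were −1.05 ± 0.26 and −0.93 ± 0.26 (adjusted p = 0.114 and 0.0983). CYB2, the L-lactate cytochrome c oxidoreductase gene, was at 194, 101 and 279 CPM in the controls, 63, 69.6 and 83.2 in Ind_B and 89.3, 124 and 125 in Ind_Z (−1.41 ± 0.31 in Ind_B, adjusted p = 0.0898). DLD1, the D-lactate dehydrogenase gene, had −0.56 ± 0.15 in Ind_Z (adjusted p = 0.0793). STF2, encoding a protein that stabilises the inhibited ATP synthase, was higher in every Ind_Z library than in every Ind_B library, at 29.8, 41.9 and 45.6 against 16.9, 16.2 and 13 CPM (1.34 ± 0.29, adjusted p = 0.0676).

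The 49 assembly and expression factors had a median of 0.02 in Ind_B and −0.19 in Ind_Z, with 20 and 40 members below 0. Their lowest p were those of AEP3 in Ind_B (0.55 ± 0.17, adjusted p = 0.16), COX10, a gene of haem A synthesis, in Ind_Z (−0.46 ± 0.14, adjusted p = 0.111) and CBT1 between the antifoams (0.94 ± 0.2, adjusted p = 0.0676). Ubiquinone synthesis genes had medians of −0.16 and −0.11. COQ2 was at −0.71 ± 0.26 in Ind_B and −0.85 ± 0.26 in Ind_Z (adjusted p = 0.199 and 0.124). Its CPM was 18.2, 13.6 and 30.3 in control1, control12 and control13. COQ8 was at −0.21 ± 0.11 between the antifoams (adjusted p = 0.247). The mitochondrially encoded subunits COX1, COX2, COX3, COB, ATP6 and OLI1 had medians of −0.1 in Ind_B and −0.15 in Ind_Z, each of the 6 below 0 in both. OLI1 had the lowest p in Ind_B (−0.31 ± 0.23, adjusted p = 0.491) and in Ind_Z against Ind_B (0.31 ± 0.23, adjusted p = 0.417), and ATP6 in Ind_Z (−0.25 ± 0.24, adjusted p = 0.601).

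Within the Ind_B group the members' deviations varied with the length of their coding sequence. In Ind_B3 the shorter 17 genes (up to 456 bp) lay below the mean of the other 2 Ind_B libraries by a median log2 difference of −0.4 and the longer 17 (from 462 bp) above it by 0.18. In Ind_B2 the shorter genes lay above by 0.35 and the longer below, at −0.13. Across the 34 genes Pearson's r between log2 length and this deviation was 0.87 in Ind_B3, −0.73 in Ind_B2 and −0.1 in Ind_B1, and across 5668 genes with a coding length it was 0.52, −0.24 and −0.32. These are descriptions across genes, which are not independent, and the deviations within a group are tied to each other because each library is set against the other 2. The same r over the 34 genes was −0.64 in Ind_Z3, 0.44 in Ind_Z2 and 0.3 in Ind_Z1, and −0.45, 0.2 and 0.18 in control1, control12 and control13. Over the 5668 genes it was −0.36, 0.24 and 0.08 in Ind_Z3, Ind_Z2 and Ind_Z1, and 0.1, 0.1 and −0.11 in the controls. Between length and the fold change r over the 34 genes was −0.33 in Ind_B, −0.08 in Ind_Z and 0.32 in Ind_Z against Ind_B. Over the 5668 genes these were 0.002, −0.052 and −0.047. The part of coding length in the results was not tested.

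**Figure D5:**
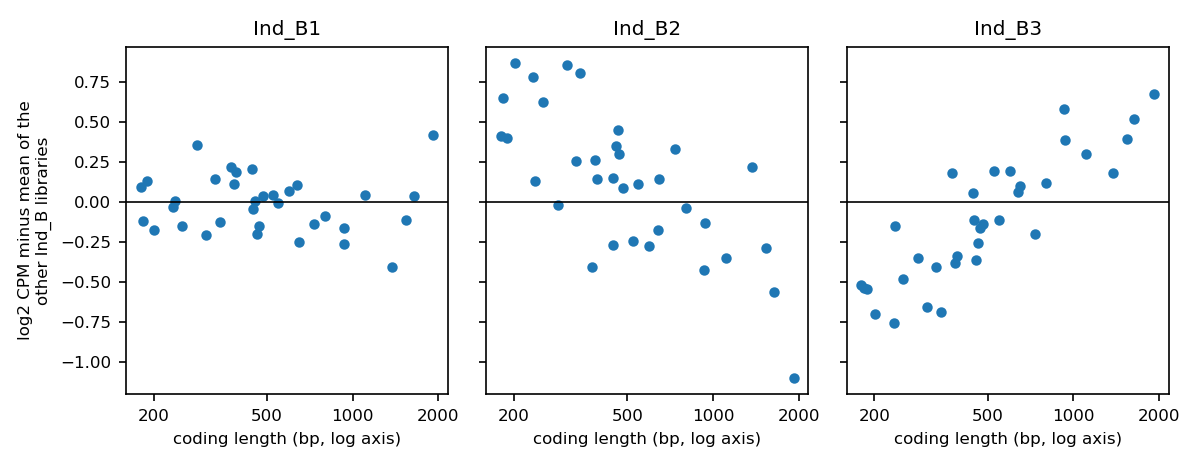
Log2 CPM of each of the 34 genes in 1 Ind_B library minus the mean of the other 2 Ind_B libraries, against coding length in bp on a log axis. Short genes lie high and long genes low in Ind_B2, and the reverse holds in Ind_B3.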

How the data were processed

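The authors deposited raw counts of reads for 6357 features in 1 table, whose 9 columns were all used. TopHat2 (2.0.9) and HTSeq (0.6.0) appear, with no role stated, per the submitters' processing notes. Total RNA was taken with a TRIzol kit and sequenced from TruSeq libraries depleted of rRNA, per the labels' protocols. The build, the annotation and the counting strand are items not given in the sources used here. Column names matched 1 sample for 7 columns, and control12 and control13 were placed in the control group without a replicate number.

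Names came from the RefSeq R64 gene table (5783 rows by locus tag, 65 by symbol, 509 unmatched and not checked for overlap). No member overlapped another RefSeq gene or had a near-identical copy (95% identity over 50% of its length, BLAST+ 2.17.0). Mitochondrial ATP8 was not analysed here.

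The model was edgeR 4.0.16 in R 4.3.3, with filterByExpr (6137 genes), TMM and a quasi-likelihood fit with 1 mean per group (6 residual degrees of freedom), called at a Benjamini-Hochberg adjusted p under 0.05. The script was tested on simulated data. Log2 CPM for ratios and centring used a prior count of 2. The alternatives were DESeq2 1.42.0, other scaling and filters, smaller fits and leaving out each library. The members and lists were chosen with earlier results of these data known, and the 4 printed promoters after their values were seen. Named members were the isoform pairs, the highest and lowest levels per length and, per complex and comparison, the 2 of lowest p. COR1, the paralog of SDH1, HAP3, HAP4, HAP5, NDI1 and the other carriers and subunits called by DESeq2 were named after their values were seen. The other members are given by range. No protein sequences were used here.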

Additional observations from a re-analysis of the deposited data

How the results depend on the processing

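The count of called members depended on the test and on single libraries. DESeq2 called 10 in Ind_B against control, all lower (SDH2, COR1, QCR2, CYT1, CYC1, COX4, COX6, COX8, ATP2 and ATP7; 4.92% of all genes), 1 in Ind_Z against control (RIP1; 7.28%), 0 between the antifoams (10.3%) and 11 over all 3 groups (14.8%). The fit on the 6 antifoam libraries called 2 (SDH3 and QCR8) between them (20.5% of all genes). Leaving out 1 library gave 0 to 9 called in Ind_B, 0 to 2 in Ind_Z, 0 to 2 between the antifoams and 0 to 8 over all groups. Without control12, 9 were called in Ind_B (SDH3, COR1, QCR2, CYT1, CYC1, COX4, COX6, COX8 and ATP2; 5.4% of all genes), RIP1 and CYC1 in Ind_Z (2.99%) and 8 over all groups (6.34%). Without control13 there were 0 (0.728%), 1 (19.6%) and 3 (23.7%), the last 2 below the shares of all genes. The cause was not tested. RLE and upper-quartile factors, both filters and leaving out the abundant rows called 0 in each comparison.

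The median of the 34 stayed below 0 in every alternative run, at −0.63 to −0.33 in Ind_B and −0.55 to −0.21 in Ind_Z. Over fits leaving out 1 library the median in Ind_B ran from −0.86 to −0.34 for complex II and −0.57 to −0.31 for complex III, and in Ind_Z from −0.49 to 0.06, −0.63 to −0.33 and −0.52 to −0.19 for complex II, complex III and ATP synthase. With a mean over members complex III was at −0.303 in Ind_Z. The difference of the COX5B to COX5A ratio between the antifoams ran from −0.096 to 0.046 without single libraries, with 0.046, 0.029 and 0.003 without Ind_B1, Ind_Z1 and Ind_Z3. CYC7 in Ind_B turned to 0.014 with upper-quartile factors, ran from −0.357 to 0.152 without single libraries and turned to 0.091, 0.025 and 0.152 without control1, Ind_B1 and Ind_B3. COX5B in Ind_B (−0.188 to 0.034) turned to 0.019 and 0.034 without control13 and Ind_B3, and SDH4 in Ind_Z (−0.943 to 0.03) to 0.03 without control13. Between the antifoams COX5B (−0.195 to 0.033) turned to 0.033 without Ind_B2, and COX5A (−0.15 to 0.098) to 0.098 and 0.02 without Ind_B2 and Ind_Z2.

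Deviations of same-numbered antifoam libraries correlated at −0.02, −0.24 and −0.44, and those of differently numbered ones at −0.066 to 0.331. Deviations within a group of 3 are tied to each other, so these values cannot decide whether replicate numbers pair cultures. With the replicate block 0 members were called and the median of the 34 between the antifoams was 0.17. Controls could not enter because 2 of their columns carry no replicate number. Depth limits CYC1 most, with 47 counts in its shallowest library.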
